A study of Mus musculus with 104 samples.

Results

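The comparison of BAC-CAG with wild-type (WT) mice in the cortex at 2 months rested on 12 of the 104 libraries of the series, 6 of each genotype. The libraries were the cortex columns of the 2-month count table, and each was placed in its group by its genotype label. All 12 came from mice of the FvB strain background, perfused with PBS at 2 months of age, and each genotype held 3 females and 3 males. BAC-CAG mice are labelled as transgenic (Tg) and carry the human huntingtin gene HTT, with an expanded CAG repeat, on a bacterial artificial chromosome. The WT mice are described as littermates without the transgene. The series also holds striatum at the same age, cortex at 6 and 12 months, and a separate line named BACHD with its own WT mice at 12 months. The question was which genes already differ between the genotypes in the cortex of young adult mice.

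Huntington's disease is caused by expansion of the CAG repeat in HTT, which lengthens a glutamine tract in the huntingtin protein. Neurons of the striatum and the projection neurons of the deep cortical layers that innervate it are among the cells most affected in patients. In a transgene on a bacterial artificial chromosome the human gene is expressed in full length under its own regulatory sequences, so that many tissues and cell types make the mutant protein.

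Total counts lay between 29.9 and 45.9 M per library, with a mean of 40.2 M in WT (SD 3.81, n = 6) and 35.6 M in BAC-CAG libraries (SD 4.27, n = 6). Levels are given in CPM, the count of a gene relative to the total of its library, scaled for library composition unless said otherwise. Markers of cortical excitatory neurons summed to between 10215 and 11096 CPM by plain library size in these 12 libraries and to at most 4264 CPM in the 12 striatal libraries of the same age. Markers of striatal projection neurons summed to at most 878 CPM in cortex and to at least 13917 CPM in striatum, so the tissue label fitted the markers. All 6 BAC-CAG animals have tags that begin with 33 (the 3 females) or 34 (the 3 males). Among the 6 WT animals only 3 share these numbers, and the others carry 35, 37 and 40. The labels do not say what the number marks, so genotype is in part confounded with it.

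WT library 5, from the animal with tag 37, stood apart from the others. Of 15105 genes, 46 were higher in it and 30 were lower in it than in each of the other 11 libraries by more than 1 on the scale of log2(CPM + 1). No other cortical library had more than 3 such genes. The examples were chosen after their values were seen. The predicted gene Gm13394 had 1.09 CPM in WT library 5 and 331 to 364 CPM in the others. Rpl29 had 20.9 CPM in WT library 5 and 0.905 to 1.59 CPM in the others. The acute-phase gene Serpina3n had 9.20 CPM against 65.0 to 74.7 CPM, and the chaperone gene Hspa8 had 510 CPM against 135 to 158 CPM. Ribosomal protein and chaperone genes such as Rpl29 and Hspa8 have many near-identical copies in the genome, so their counts are uncertain. By the same rule among the striatal libraries, the striatal library of the same animal shared 7 of the 46 higher and 21 of the 30 lower genes. Gm13394, Rpl29, Serpina3n and Hspa8 were among the shared genes. They had 0.824, 22.8, 5.06 and 519 CPM in that striatal library. The other striatal libraries had 270 to 376, 0.660 to 9.26, 34.1 to 96.9 and 112 to 214 CPM. Some genes that missed this rule were still highest in that striatal library, such as Nvl, with 79.6 CPM against 32.3 to 42.9 CPM. Others were not, such as Fcrls, with 11.8 CPM against 1.43 to 18.2 CPM. WT library 6 held the highest level of myelin genes, and WT library 2 held the highest level of choroid plexus genes. Where leaving out 1 of these libraries moved a list's median by more than 1.5 times, the value without it is given beside the list or in the closing section.

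Msantd1, a gene that lies beside Htt on chromosome 5, was the one gene that passed the test. It rose in BAC-CAG cortex by 2.14 on the log2 scale (SE 0.21, n = 6 against 6, edgeR adjusted p = 0.00095). Its level was 1.92, 1.93, 1.97, 1.16, 1.75 and 1.11 CPM in WT libraries 1 to 6. In BAC-CAG libraries 1 to 6 it was 6.35, 5.95, 4.78, 11.8, 6.33 and 8.39 CPM. Every BAC-CAG library thus lay above every WT library, and the lowest BAC-CAG value exceeded the highest WT value. The exact two-sided permutation p over the 924 ways of assigning the 2 genotypes to the 12 libraries was 0.0022, the smallest that 6 against 6 allows. Any gene without overlap between the groups has this p, so it only restates the separation. The 3 BAC-CAG females had 4.78 to 6.35 CPM and the 3 males 6.33 to 11.8 CPM. All these females carry tag number 33 and all these males 34, so sex and tag number cannot be told apart within BAC-CAG. The difference of the genotype effect between females and males was -1.03 (SE 0.38, edgeR unadjusted p = 0.017, adjusted p = 1.0), so it did not pass the test over all genes.

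Htt itself, the mouse counterpart of the transgene, had 222, 214, 217, 228, 229 and 229 CPM in WT libraries 1 to 6 and 237, 222, 234, 247, 247 and 239 CPM in BAC-CAG libraries 1 to 6. The BAC-CAG values lay mostly above the WT values, with 1 library, BAC-CAG 2, inside the WT range. In edgeR Htt had an adjusted p of 0.62 at a log2 change of 0.09 (SE 0.03), and the exact two-sided permutation p for Htt alone was 0.015. Reads of the mouse gene and of the human transgene cannot be told apart in these counts, since the processing notes name mouse builds only.

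**Figure D1:**
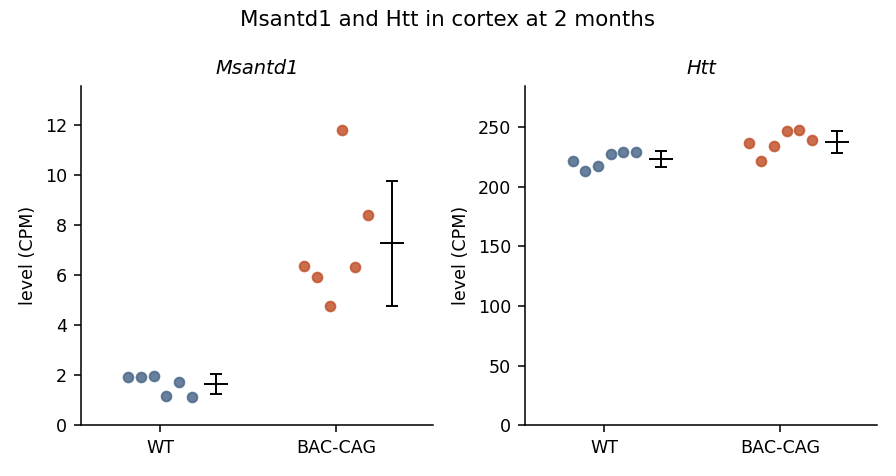
Levels of Msantd1 (left) and Htt (right) in CPM in the cortex at 2 months; each point is 1 library, 6 per genotype in the order of their numbers, and the black bar is the mean with its SD. All 6 BAC-CAG libraries lie above all 6 WT libraries for Msantd1, whereas the Htt values of the groups overlap.

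Both genes lie on the forward strand of GRCm38. Htt spans chr5:34761740-34912534 and Msantd1 spans chr5:34908012-34923839, so the gene bodies overlap by 4523 bp. In the GENCODE M21 annotation the overlap holds no shared exon sequence. A single Msantd1 exon of 96 bp, at chr5:34908012-34908107, lies in an intron of Htt, before its last exon at chr5:34908632-34912534. The other 2809 of 2905 exonic bp of Msantd1 lie beyond the end of Htt. Whether the Msantd1 reads came from mouse or human sequence was not tested.

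RefSeq start regions of the 2 genes are shown because the called gene is the neighbour of the targeted one. Each window runs from 250 bases before to 50 bases after the start of the gene in RefSeq (GRCm38.p6, forward strand), and capitals mark the GC box GGGCGG or its reverse complement CCGCCC. The Htt window is chr5:34761490-34761789 and the Msantd1 window is chr5:34915665-34915964, which lies beyond the end of Htt. The annotations place the start of Msantd1 differently: the GENCODE gene begins inside Htt at 34908012 and has a further exon from 34915088, so that the RefSeq window falls within the GENCODE gene body.
Htt: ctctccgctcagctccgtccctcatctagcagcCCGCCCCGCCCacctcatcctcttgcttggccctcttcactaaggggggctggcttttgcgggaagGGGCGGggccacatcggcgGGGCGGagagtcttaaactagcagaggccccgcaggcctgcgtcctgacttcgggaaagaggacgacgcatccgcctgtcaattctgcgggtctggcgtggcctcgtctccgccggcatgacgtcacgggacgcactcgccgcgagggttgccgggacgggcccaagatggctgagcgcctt
Msantd1: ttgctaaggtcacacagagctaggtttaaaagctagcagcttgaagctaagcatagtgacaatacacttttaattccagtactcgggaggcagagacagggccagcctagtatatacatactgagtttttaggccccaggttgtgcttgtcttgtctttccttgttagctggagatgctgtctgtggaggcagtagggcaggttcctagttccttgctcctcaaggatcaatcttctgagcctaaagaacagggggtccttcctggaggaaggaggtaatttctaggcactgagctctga
The Htt window held 4 matches, at positions 34, 39, 100 and 119 from its 5′ end, and had a GC content of 67.3%. The Msantd1 window held none and had a GC content of 47.7%. Among all 32817 windows of the table, 35.6% held at least 1 match on either strand, so the letters shown are a description of the windows only.

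Of the 16 genes listed around Htt, 15 were tested and 1, Msantd1, was called. The median log2 change of the 15 was 0.02, with 6 negative and 9 positive values. Zfyve28 had a log2 change of 0.08 (SE 0.04), from 49.1 to 63.1 CPM in WT and from 59.6 to 64.4 CPM in BAC-CAG libraries, and 0.05 (SE 0.03) without WT library 5. Apart from Msantd1 and Htt, no gene of the neighbourhood had an unadjusted p under 0.05.

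Over the whole table, 1 of 17760 tested genes passed the edgeR test at an adjusted p under 0.05, which is 0.00563%. At an unadjusted p under 0.05 there were 1238 genes, or 6.97%, of which 594 (3.34%) were higher and 644 (3.63%) were lower in BAC-CAG mice. The 6 values of each genotype did not overlap for 45 genes (0.253%), 27 higher and 18 lower. The median log2 change of all tested genes was -0.00081, with 50.4% of the values negative and 49.6% positive. DESeq2, fitted to the same counts, called 24 genes (0.135%), 11 higher and 13 lower. Without a filter on low counts edgeR called 3 of 30444 genes (0.00985%).

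**Figure D2:**
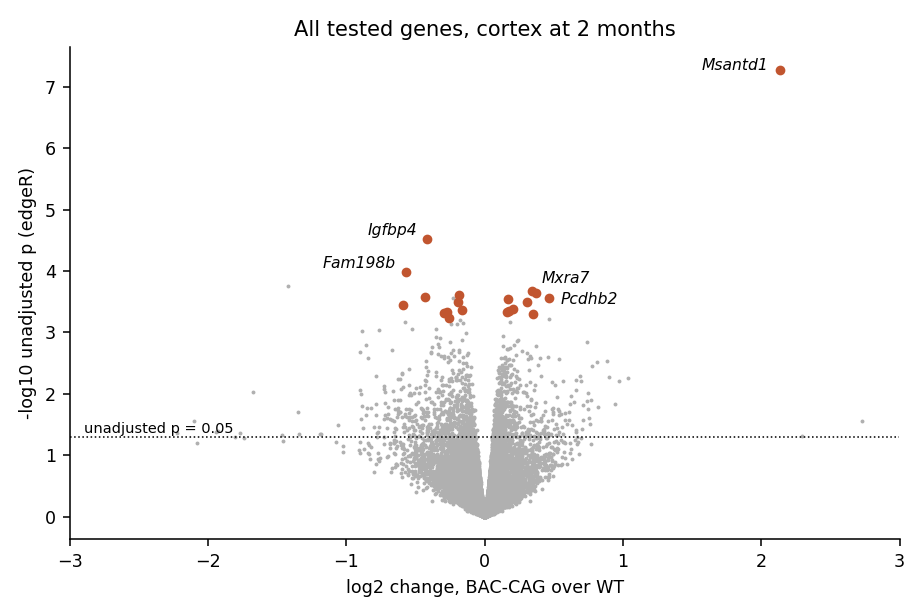
Log2 change of BAC-CAG over WT cortex (x axis) against -log10 of the unadjusted edgeR p (y axis) for the 17760 tested genes, 1 of which lies outside the x range; orange points are the 10 higher and 10 lower genes of smallest p. Msantd1 stands alone at the upper right, and the other named genes lie within 0.6 of 0.

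The 9 genes with positive values that followed Msantd1 in order of p included genes of signalling and of the cell cycle. None passed the edgeR test, with an adjusted p of 0.42 for each, and all 9 were called by DESeq2. Mxra7 had the smallest p, with a log2 change of 0.34 (SE 0.07), from 16.8 to 20.8 CPM in WT (median 18.5) and from 18.4 to 26.4 CPM in BAC-CAG libraries (median 23.9). Pde11a, which encodes a phosphodiesterase of cyclic nucleotides, had 0.37 (SE 0.08), with medians of 3.79 and 4.89 CPM. Cdkn1c, an imprinted inhibitor of cyclin-dependent kinases, had 0.35 (SE 0.08), and Cdc25b, a phosphatase that activates those kinases, had 0.20 (SE 0.05). Psrc1, which encodes a microtubule-binding protein of the mitotic spindle, had 0.31 (SE 0.07). Lrrn3, a leucine-rich repeat membrane protein of neurons, and Slc24a4, a potassium-dependent exchanger of sodium and calcium, had 0.17 (SE 0.04) and 0.18 (SE 0.04). The groups overlapped for all 9 genes.

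Among the 10 genes with negative values and the smallest p, Igfbp4 came first. It encodes a secreted protein that binds insulin-like growth factors. Its level lay between 46.1 and 64.3 CPM in WT (median 52.6) and between 36.3 and 46.6 CPM in BAC-CAG libraries (median 39.0), so that the ranges met only at WT library 6 and BAC-CAG library 3. The log2 change was -0.41 (SE 0.07), with an adjusted p of 0.26 in edgeR and of 0.00018 in DESeq2. Fam198b had 9.15 to 13.8 CPM in WT and 6.23 to 9.12 CPM in BAC-CAG libraries, with no overlap, and its value of -0.57 on the log2 scale (SE 0.11) had an edgeR adjusted p of 0.42.

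Values also did not overlap for Ptprg, Dusp19 and Sstr4 in this group of 10, against 0.101% of all tested genes that were lower without overlap. Ptprg, a receptor tyrosine phosphatase, had 94.6 to 105 CPM in WT and 83.8 to 94.0 CPM in BAC-CAG libraries. Dusp19, a dual-specificity phosphatase, had 10.03 to 12.5 CPM and 8.42 to 9.72 CPM, the highest value being that of WT library 5. Sstr4, a receptor for the interneuron peptide somatostatin, had 9.24 to 11.1 CPM and 7.28 to 9.18 CPM. The genes were chosen for a small p, so that their separation is a description. Wwc1, which encodes the scaffold protein KIBRA, Ephb6, an ephrin receptor without kinase activity, and Megf11 had log2 changes of -0.19 (SE 0.04), -0.19 (SE 0.04) and -0.43 (SE 0.09). Fancd2, of the Fanconi anaemia pathway of DNA repair, had -0.59 (SE 0.13). DESeq2 called all 10 genes, while the edgeR adjusted p was 0.42 or 0.45 for the 9 after Igfbp4.

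When only animals with tags 33 and 34 were compared (6 BAC-CAG against 3 WT), edgeR called 33 of 18187 genes (0.181%), 14 higher and 19 lower. By their sign over all 12 libraries, 12 of these 33 genes were higher and 21 lower, so not all kept their sign. Msantd1 was among them at 1.79 (SE 0.21, adjusted p = 0.0044). Pcdhb2, Lrrn3, Igfbp4, Wwc1 and Fam198b were also called, at 0.49 (SE 0.08), 0.21 (SE 0.04), -0.31 (SE 0.05), -0.23 (SE 0.04) and -0.59 (SE 0.11). These 6 genes were the ones shared with the DESeq2 calls, that is 6 of 24 and 6 of 33. The other calls, named after their values were seen, included Slc17a6, a vesicular glutamate transporter of thalamic neurons, at 0.47 (SE 0.07). The myelin genes Cldn11 and Myrf were at -0.29 (SE 0.05) and -0.27 (SE 0.05), and the precursor gene Ptprz1 was at -0.22 (SE 0.04).

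Gene lists were read member by member. Each count of a list stands against all tested genes, of which 50.4% were negative. At an unadjusted edgeR p under 0.05, 3.34% of all tested genes were higher and 3.63% were lower. Apart from Msantd1, no member of any list passed the edgeR test, so the lists are described by the sign and size of their members' log2 changes. All levels come from bulk tissue, in which fewer cells of a type and less RNA per cell cannot be told apart.

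**Figure D3:**
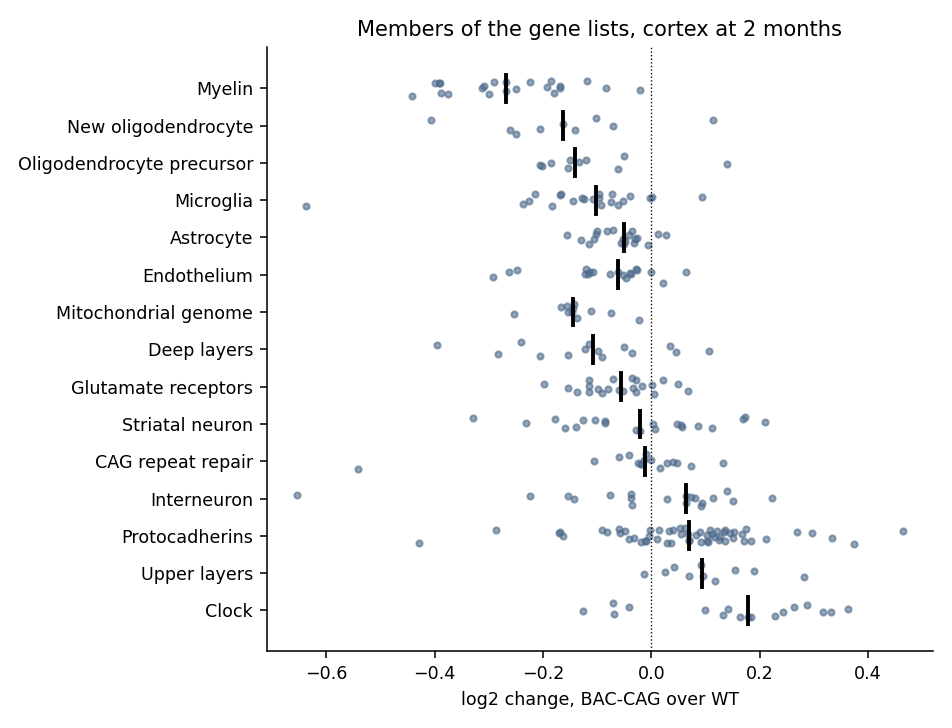
Log2 changes of BAC-CAG over WT cortex at 2 months for the tested members of 15 gene lists; each point is 1 gene and the black bar is the median of the list. Points of the myelin and mitochondrial lists all lie below 0, and most of the clock and upper-layer points lie above 0.

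Myelin and mature oligodendrocyte genes had negative log2 changes in all 22 tested members, with a median of -0.27. Oligodendrocytes wrap axons in myelin, and in mice of this age the cortex is still being myelinated. None of the 22 was called, and 12 had an unadjusted p under 0.05, where 3.63% of all tested genes were lower at that level. Mobp, a structural myelin protein, had 253 to 402 CPM in WT (median 283) and 205 to 268 CPM in BAC-CAG libraries (median 219), a log2 change of -0.39 (SE 0.10, edgeR adjusted p = 0.58). Olig1, a transcription factor of the lineage, had medians of 78.6 and 68.0 CPM and -0.22 (SE 0.06). The gap junction gene Gjb1 and the lipid raft protein Mal had -0.25 (SE 0.10) and -0.39 (SE 0.16). WT library 6 had 165 CPM of Mal and the other WT libraries 70.8 to 112 CPM. Without it Mal was at -0.17 (SE 0.08) and Mobp at -0.26 (SE 0.05).

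WT libraries 1 and 6 held the highest summed myelin levels. The list summed to 3658, 2985, 2719, 2357, 2392 and 4222 CPM in WT libraries 1 to 6 and to between 2221 and 2759 CPM in BAC-CAG libraries (median 2421). WT libraries 3, 4 and 5 thus lay within the BAC-CAG range. Without WT library 6 the median log2 change of the list was -0.15 and 4 members had an unadjusted p under 0.05. Without WT library 1 the median was -0.22 and the number was 2. Without WT library 5 they were -0.33 and 17, and with tags 33 and 34 only they were -0.25 and 18. The number was 2 without BAC-CAG library 1, 6 without BAC-CAG library 4 and 2 without BAC-CAG library 6.

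Genes of earlier stages of the lineage were also mostly negative. Of 9 tested genes of newly formed oligodendrocytes, 8 were negative, with a median of -0.16, which was -0.09 without WT library 6. Bcas1, which is made during early myelination, had 96.9 to 136 CPM in WT and 79.2 to 106 CPM in BAC-CAG libraries, a log2 change of -0.25 (SE 0.07). Enpp6, a choline phosphodiesterase of newly formed cells, had -0.41 (SE 0.18). Among 10 genes of oligodendrocyte precursors 9 were negative, with a median of -0.14, and 3 had an unadjusted p under 0.05. That number was 1 without WT library 1 or without BAC-CAG library 1 or 6, 5 without BAC-CAG library 4 and 7 without WT library 4. Pdgfra, the growth factor receptor that marks precursors, had medians of 55.9 and 48.5 CPM and -0.21 (SE 0.06). The proteoglycan genes Ptprz1 and Cspg4 had -0.12 (SE 0.05) and -0.13 (SE 0.06).

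Astrocyte, microglial and endothelial genes were mostly negative too. Astrocytes clear glutamate from synapses. Slc1a2, their main glutamate transporter, had 4436.2 to 4985 CPM in WT and 4124 to 4435.7 CPM in BAC-CAG libraries. The groups did not overlap, but WT library 2 and BAC-CAG library 4 nearly met. Slc1a2 was the only 1 of the 20 astrocyte genes that was lower without overlap, against 0.101% of all tested genes. Its log2 change was -0.15 (SE 0.04), with an adjusted p of 0.45 in edgeR and 0.011 in DESeq2. The second transporter, Slc1a3, had -0.11 (SE 0.04). Of 20 astrocyte genes 18 were negative, with a median of -0.05, which was -0.09 without BAC-CAG library 2.

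Microglia are the immune cells of the brain. Their genes were negative in 20 of 22 members with a median of -0.10. Of these, 8 were lower at an unadjusted p under 0.05, against 3.63% of all tested genes. P2ry12, a nucleotide receptor of resting microglia, had 29.2 to 43.5 CPM in WT and 28.2 to 34.7 CPM in BAC-CAG libraries, a log2 change of -0.23 (SE 0.09). Laptm5, the complement gene C1qa and the chemokine receptor Cx3cr1 had -0.17 (SE 0.06), -0.14 (SE 0.06) and -0.11 (SE 0.05). Without WT library 5 C1qa was at -0.09 (SE 0.04). Without WT library 5, whose summed level of 661 CPM was the highest, the median was -0.08 and 3 members had an unadjusted p under 0.05. When each library was left out in turn that number ran from 1, without BAC-CAG library 1, to 10, without WT library 4.

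Endothelial genes were negative in 17 of 19 members, with a median of -0.06. The median was -0.03 without WT library 6, -0.04 without BAC-CAG library 3 and -0.11 without WT library 2, WT library 4 or BAC-CAG library 2. Mfsd2a, a lipid transporter of the blood-brain barrier, had 22.2 to 30.6 CPM in WT and 15.2 to 24.7 CPM in BAC-CAG libraries and a log2 change of -0.29 (SE 0.10). Slco1a4, an organic anion transporter of the same cells, had -0.25 (SE 0.09), and -0.16 (SE 0.07) without WT library 6. Genes of pericytes and smooth muscle were negative in 9 of 11 members, with a median of -0.08 and none at an unadjusted p under 0.05. Their median was -0.04 without WT library 6, and with tags 33 and 34 only it turned to 0.01, with 6 of 11 positive.

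Tissue at the border of the cortex varied between libraries. The choroid plexus, which lies in the ventricles, makes transthyretin and cerebrospinal fluid. Its genes and those of ependyma summed to 204 CPM in WT library 2, to between 16.3 and 33.9 CPM in the other WT libraries and to between 14.3 and 21.1 CPM in BAC-CAG libraries. All 10 tested genes of the 20 listed were negative, with a median of -0.82, which was -0.29 without WT library 2. Folr1, a folate receptor, had 2.14 CPM in WT library 2 and at most 0.596 CPM elsewhere, and Prlr, the prolactin receptor, had 5.54 CPM there. Meningeal fibroblast genes were positive in 10 of 12 members with a median of 0.16. It was 0.29 without WT library 6, where 5 members had an unadjusted p under 0.05, and 0.06 without WT library 5. Without BAC-CAG library 1 it was 0.10 and without BAC-CAG library 2 it was 0.07, with 7 of 12 positive. They summed to between 523 and 751 CPM in WT and to between 450.2 and 1020 CPM in BAC-CAG libraries, with the highest values in BAC-CAG libraries 1 and 2. Slc6a13, a transporter of GABA and taurine in the meninges, had 0.32 (SE 0.15), and the prostaglandin synthase gene Ptgds had 0.27 (SE 0.15). Without BAC-CAG library 2 they were at 0.20 (SE 0.14) and 0.15 (SE 0.13). No red blood cell gene reached the test, and the 5 listed summed to at most 1.28 CPM. The part of choroid plexus and meningeal tissue in the values of other lists was not tested.

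Markers of cortical excitatory neurons as a whole had a median of 0.00 over 14 members, with 6 negative and 8 positive. At an unadjusted edgeR p under 0.05, 2 were lower and 0 higher. These were Kcnv1 at -0.14 (SE 0.05) and Nrn1 at -0.10 (SE 0.04). Upper-layer genes were positive in 9 of 10 members, with a median of 0.09, and 3 had an unadjusted p under 0.05, where 3.34% of all genes were higher at that level. The number was 1 when WT library 1 or 2 or BAC-CAG library 1 or 4 was left out. Cux2, a transcription factor of upper-layer neurons, had 221 to 275 CPM in WT (median 249) and 236 to 319 CPM in BAC-CAG libraries (median 297), a log2 change of 0.19 (SE 0.07). Rasgrf2, a guanine nucleotide exchange factor, Rspo1, a secreted activator of Wnt signalling, and Rorb, a nuclear receptor of layer 4, had 0.15 (SE 0.06), 0.28 (SE 0.12) and 0.12 (SE 0.08). Rorb was at 0.06 (SE 0.07) without BAC-CAG library 1 and at 0.18 (SE 0.07) without WT library 6. Deep-layer genes were negative in 11 of 14 members, with a median of -0.11 and none at an unadjusted p under 0.05. Etv1, a transcription factor of layer 5, and Foxp2, of layer 6, had -0.15 (SE 0.07) and -0.40 (SE 0.20).

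Interneuron genes were mixed, with 8 of 19 negative and a median of 0.06, which was 0.02 without WT library 1 and 0.03 without BAC-CAG library 1. Dlx1, a homeobox gene of GABA neurons, had 0.14 (SE 0.05), and Gad1, which encodes the enzyme that makes GABA, had 0.09 (SE 0.05). Chodl, with at most 0.894 CPM in any library, had -0.65 (SE 0.29). At an unadjusted edgeR p under 0.05, 1 interneuron gene was higher (Dlx1) and 1 was lower (Chodl). Genes of striatal projection neurons were negative in 11 of 21 members tested in cortex, with a median of -0.02. Adcy5, an adenylyl cyclase, had -0.13 (SE 0.04), and Rasd2, a small GTPase enriched in striatum, had 0.17 (SE 0.07). The 6 thalamic genes had mixed signs, with Plekhg1 at -0.25 (SE 0.06), the kinase gene Prkcd at -0.23 (SE 0.07), Tnnt1 at 0.33 (SE 0.12) and Slc17a6 at 0.23 (SE 0.10). Hippocampal genes, 4 tested, had a median of 0.10.

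Genes of the mitochondrial genome had negative log2 changes in all 11 tested members, with a median of -0.14. The mitochondrial genome encodes subunits of the respiratory chain and is transcribed in every cell type. None was called by edgeR, and 5 had an unadjusted p under 0.05, or 3 without WT library 3, BAC-CAG library 1 or BAC-CAG library 3. mt-Nd5, a subunit of complex I, had 5889 to 7691 CPM in WT (median 6533) and 4961 to 6103 CPM in BAC-CAG libraries (median 5621). Its log2 change was -0.25 (SE 0.06), with an adjusted p of 0.45 in edgeR and 0.020 in DESeq2. mt-Nd2, mt-Nd6 and mt-Cytb had -0.14 (SE 0.05), -0.15 (SE 0.05) and -0.17 (SE 0.07). The list summed to between 54539 and 72048 CPM in WT (median 66094) and to between 53623 and 63702 CPM in BAC-CAG libraries (median 57395), so that WT libraries 4 and 6 lay within the BAC-CAG range. Mitochondrial counts made up 7.06% of all counts in WT (SD 0.649, n = 6) and 6.42% in BAC-CAG libraries (SD 0.344, n = 6). Nuclear genes for mitochondrial aminoacyl-tRNA synthetases had a median of 0.03 over 17 members, the largest at Fars2 with 0.15 (SE 0.06). Cytosolic ribosomal protein genes had a median of -0.00 over 79 members.

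Clock genes were positive in 13 of 17 members, with a median of 0.18. The circadian clock is a loop of transcription factors in which Clock and Arntl activate their own repressors and a set of output genes with a PAR domain. Of the 17 members, 6 had an unadjusted p under 0.05 with a positive value and 1 with a negative value. Hlf, an output factor, had 269 to 345 CPM in WT (median 306) and 310 to 377 CPM in BAC-CAG libraries (median 343), a log2 change of 0.16 (SE 0.04). Tef, of the same family, had 0.14 (SE 0.05), and the repressor genes Nr1d2 and Bhlhe41 had 0.13 (SE 0.04) and 0.29 (SE 0.10). In edgeR the smallest adjusted p of the list was 0.42.

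The summed clock level was 2356 CPM in WT library 3 and between 1625 and 1993 CPM in the other 5 WT libraries, while the BAC-CAG libraries lay between 2111 and 2245 CPM. Without WT library 3 the median was 0.25, with 13 members higher at an unadjusted p under 0.05. Without WT library 5, which had the lowest sum, it was 0.12, with 5. With tags 33 and 34 only it was 0.05, with 2. The times of day at which the animals were killed are not given in the sources used here. The 18 immediate early genes, which respond to neuronal activity within minutes, had a median of 0.03, with none at an unadjusted p under 0.05. Their median was 0.17, with 3 higher, without WT library 3, which had the highest sum, and -0.03 without WT library 5, which had the lowest. With tags 33 and 34 only it was -0.07, with 15 of 18 negative and 3 lower.

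The window of Bhlhe41 is shown because that gene had the largest value of the named clock genes and because the core clock factors bind the E-box. It is chr6:145865371-145865670, read on the reverse strand from RefSeq (GRCm38.p6), with the E-box CACGTG, which reads the same on both strands, in capitals.
Bhlhe41: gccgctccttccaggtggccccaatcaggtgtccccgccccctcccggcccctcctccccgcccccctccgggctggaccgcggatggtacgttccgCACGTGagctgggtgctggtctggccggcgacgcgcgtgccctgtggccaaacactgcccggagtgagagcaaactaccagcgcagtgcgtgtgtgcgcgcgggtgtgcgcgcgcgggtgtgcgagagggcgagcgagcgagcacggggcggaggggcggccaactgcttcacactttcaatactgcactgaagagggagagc
The window held 1 match, at position 98. Of 20 windows that belong to 15 clock genes, 6 (30.0%) held CACGTG, against 7.15% of all 32817 windows. A GC box was held by 18 of these 20 windows (90%), against 35.6% of all windows. Windows of like GC content were not compared, so these shares only describe the windows of known clock genes. The window of Hlf held none.

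Clustered protocadherins are cell-surface proteins that give neurons individual identities, and their genes are arranged in 3 arrays on chromosome 18. Of 59 listed genes 57 were tested, 40 of them positive, with a median of 0.07. At an unadjusted p under 0.05, 6 members were higher and 1 was lower, and 10 were higher without WT library 4. Pcdhb2 had 5.01 to 7.89 CPM in WT (median 6.27) and 7.39 to 9.86 CPM in BAC-CAG libraries (median 8.995), a log2 change of 0.46 (SE 0.10, edgeR adjusted p = 0.42). Without WT library 4, whose value of 7.89 CPM was the highest WT value, Pcdhb2 was called at 0.57 (SE 0.07, adjusted p = 0.021). Pcdhb3, Pcdhb8 and Pcdha12 had 0.37 (SE 0.10), 0.33 (SE 0.09) and 0.27 (SE 0.07). Members of the arrays are similar in sequence and some share exons, so that counts of single members are uncertain.

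**Figure D4:**
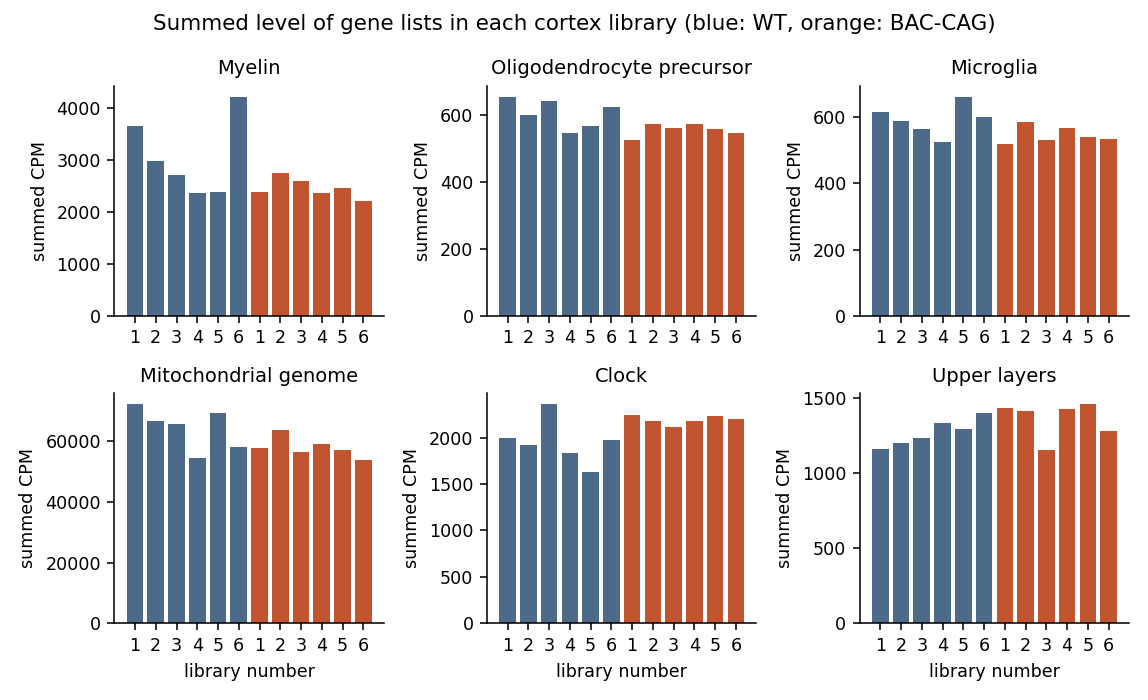
Summed CPM of 6 gene lists in each of the 12 cortex libraries; blue bars are WT libraries 1 to 6 and orange bars BAC-CAG libraries 1 to 6. The myelin bars are highest in WT libraries 1 and 6, and the clock bars of BAC-CAG libraries lie between 2111 and 2245 CPM.

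Of 13 tested acetylcholine receptor genes, 6 were negative, with a median of 0.01. Chrm1, the muscarinic receptor of cortical pyramidal neurons, had 211 to 248 CPM in WT and 235 to 252 CPM in BAC-CAG libraries, a log2 change of 0.11 (SE 0.04), and Chrm2, a muscarinic autoreceptor, had 0.23 (SE 0.08). Chrnb3, a nicotinic subunit, had 2.69 to 4.42 CPM in WT and 1.10 to 3.35 CPM in BAC-CAG libraries, a log2 change of -0.51 (SE 0.17, edgeR adjusted p = 0.62). Glutamate receptor genes were negative in 17 of 22 members, with a median of -0.06, and 4 were lower at an unadjusted p under 0.05. Their median was -0.03 without WT library 5 or 6 and turned to 0.02 with tags 33 and 34 only. Grm3, a metabotropic receptor found on astrocytes and neurons, had 72.0 to 86.0 CPM in WT and 64.9 to 71.0 CPM in BAC-CAG libraries, without overlap, and -0.15 (SE 0.04). It was the only 1 of the 22 genes that was lower without overlap, against 0.101% of all tested genes. The value of 86.0 CPM was that of WT library 1, and the other WT libraries had 72.0 to 75.1 CPM. Grik4 and Gria3, subunits of kainate and AMPA receptors, had -0.20 (SE 0.07) and -0.10 (SE 0.04).

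The median of the 14 GABA receptor genes was -0.02, and that of 10 tested neurotrophin genes and their receptors was 0.00. Gfra1, a receptor subunit for glial-derived neurotrophic factor, had -0.22 (SE 0.08). Of 24 cholesterol synthesis genes 14 were negative, and their median was -0.02. Heat shock and chaperone genes had a median of 0.04 over 16 members. Sqstm1, an adaptor of selective autophagy, had 309 to 323 CPM in WT and 324 to 333 CPM in BAC-CAG libraries, without overlap, at a log2 change of 0.05 (SE 0.02). It was 1 of the 27 genes (0.152%) that were higher without overlap. DNA repair genes tied to instability of the CAG repeat had a median of -0.01 over 16 members, none at an unadjusted p under 0.05. Fan1, a nuclease, and Lig1, a DNA ligase, had -0.11 (SE 0.06) and 0.13 (SE 0.06). Interferon response genes were negative in 20 of 26 members with a median of -0.09, which was -0.01 without WT library 5, the library with the highest sum of 216 CPM. Nuclear long non-coding RNAs had a median of 0.04 over 7 members.

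Whether the genotype effect in this comparison differed from that in striatum, in older cortex or between sexes was tested gene by gene in joint fits. With edgeR no gene passed in any of the 4 tests, which covered 18849 genes for striatum, 18472 for 6 months, 18726 for 12 months and 18452 for sex (0% called in each). At an unadjusted p under 0.05 there were 749, 1064, 757 and 698 genes. DESeq2 called 1 gene, Cdk19, for striatum, where the genotype effect in cortex exceeded that in striatum by 0.37 (SE 0.08, adjusted p = 0.046), and 0 genes in the other 3. That DESeq2 fit did not pair the tissues of an animal. For Msantd1 the differences from striatum, 6 months and 12 months were -0.18 (SE 0.29), 0.38 (SE 0.27) and 0.18 (SE 0.36), none of which passed.

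The 19 genes of smallest p other than Msantd1 were read in the other comparisons, of which the cortical ones used other animals and the striatal one used the same animals but for 1 WT library. In cortex at 6 months 5 of 19 had the sign seen at 2 months, where 45.5% of 17404 genes tested in both did. At 12 months 12 of 19 did, against 50.9%, and in BACHD cortex 10 of 18 did, against 50%. None of the 19 was called by edgeR in any of these comparisons, where it called 0.0114% of all tested genes at 6 months, 0.00557% at 12 months, 0.00631% in BACHD cortex and 0.00558% in striatum. In older BAC-CAG cortex Igfbp4 was at 0.01 (SE 0.09) for 6 months and at -0.20 (SE 0.08) for 12 months. In BACHD cortex it was at -0.33 (SE 0.07), with an adjusted p of 0.53 in edgeR and 0.027 in DESeq2. Pcdhb2 was at -0.16 (SE 0.15) in cortex at 6 months and at 0.03 (SE 0.09) at 12 months. No such count of the 19 genes is given for striatum, which came from the same animals.

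**Figure D5:**
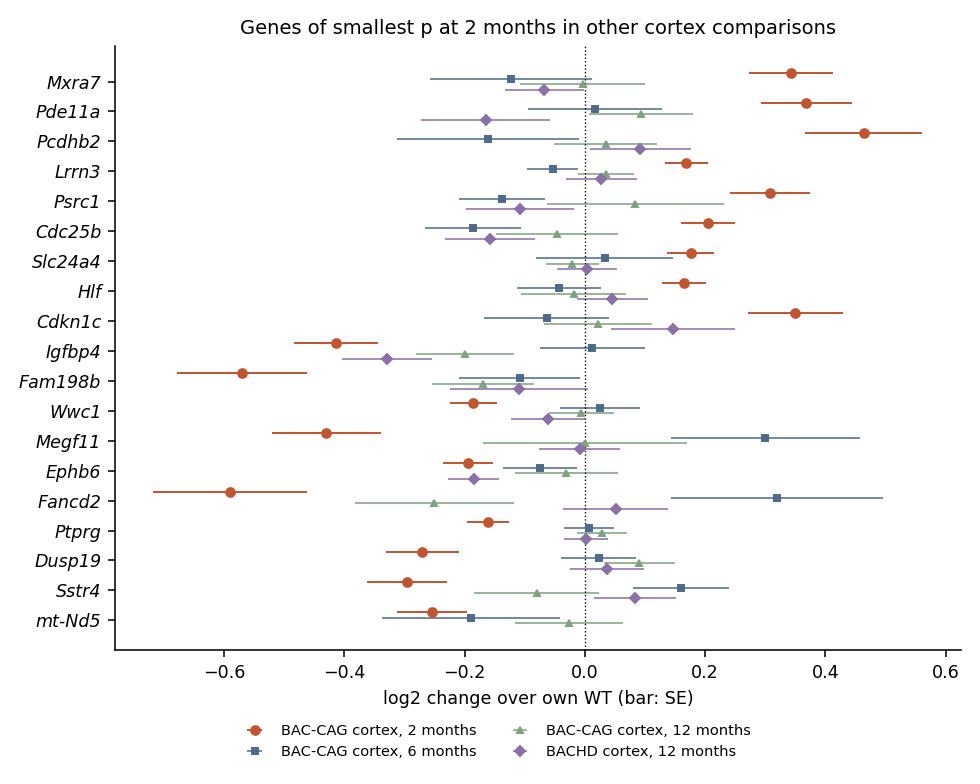
Log2 change over the respective WT group, with its SE, of the 19 genes of smallest p after Msantd1 in BAC-CAG cortex at 2 months (orange), 6 months (blue) and 12 months (green) and in BACHD cortex at 12 months (purple). Most values at the other ages lie nearer to 0 than those at 2 months, by which the genes were chosen.

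List medians were also read in the other comparisons. Striatum was taken at the same age and mostly from the same animals, so its values are not independent of those in cortex. The myelin median was -0.33 in the striatum of the same animals (21 of 22 negative), -0.06 in cortex at 6 months (19 of 22), 0.01 at 12 months (11 of 22) and -0.04 in BACHD cortex (14 of 21). Negative values made up 53% of all tested genes in striatum, 49.9% at 6 months, 49.6% at 12 months and 51.5% in BACHD cortex. For the clock list the medians were 0.01 in striatum, -0.03 at 6 months, -0.03 at 12 months and -0.01 in BACHD cortex. For the mitochondrial genome they were 0.04 in striatum, -0.12 at 6 months and -0.02 at 12 months. Upper-layer medians were 0.08 in striatum, -0.09 at 6 months (8 of 10 negative), 0.02 at 12 months and -0.03 in BACHD cortex. Deep-layer medians were 0.16 in striatum, 0.11 at 6 months (11 of 14 positive), -0.09 at 12 months and 0.07 in BACHD cortex. Both layer lists thus had the opposite sign at 6 months to that at 2 months. None of these members was called in any of the comparisons.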

How the data were processed

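Cortex of BAC-CAG and WT mice at 2 months was profiled by stranded RNA-seq of total RNA, per the labels' protocols. The authors deposited a table of whole-number counts per Ensembl gene. Reads were aligned to GRCm38 (mm10) with STAR and counted with HTSeq, per the submitters' processing notes. Their versions are not given in the sources used here. Columns were linked to samples by the animal tag in the titles. The table holds 48795 genes, 48349 of them in GENCODE M21.

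Genotypes were compared with edgeR 4.0.16 (R 4.3.3; TMM factors, filterByExpr by genotype, sex as covariate, two-sided quasi-likelihood F test, Benjamini-Hochberg adjustment over all tested genes, threshold 0.05). SEs were derived from the log2 change and its F statistic (absolute change over root F). Plain CPM (counts over library totals) were used for the marker check and for libraries standing apart. Alternatives used DESeq2 1.42.0, limma 3.58.1, sva 3.50.0 and subsets of libraries. The fits were run on simulated counts that held no effect of sex, tag number or outlying library. That run cannot show how such effects act on the results given here. Depth of 29.9 to 45.9 M counts limits genes near 1 CPM most, since counting error is largest there.

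Named genes were Htt, Msantd1, called genes, the 10 higher and 10 lower of smallest p with a mean of at least 1 CPM and no predicted gene, and up to 4 members of smallest p per list. The members and the 33 lists were chosen with earlier results of these data known. The libraries of a group carry different animal tags; p-values measure the spread between these animals. Cortex and striatum of 11 animals are paired by their tags, and the 2 tissues of an animal deviated together from their groups (correlation 0.16 to 0.64, median 0.36).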

Additional observations from a re-analysis of the deposited data

Results flagged for a closer look

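Values are listed here where 1 of the 6 libraries of a group lay far from the other 5, by a gap past Dixon's 95% critical value. The check covered 218 sets of 6 values and marked 17, and chance marks about 1 in 20. WT library 2 stood apart in choroid plexus and ependyma genes, with a summed level of 204 CPM against 16.3 to 33.9 CPM, in Folr1 (2.14 CPM against 0.216 to 0.596) and in Prlr (5.54 CPM against 0.757 to 1.5). WT library 5 stood apart in interferon response genes (216 CPM summed against 157 to 169), C1qa (42.9 CPM against 31.2 to 34.4) and Dusp19 (12.5 CPM against 10 to 10.8). WT library 1 was highest in Bcas1 (136 CPM against 96.9 to 111), Grm3 (86.0 CPM against 72.0 to 75.1) and Prkcd (9.29 CPM against 7.37 to 8). WT library 6 was highest in meningeal genes (751 CPM summed against 523 to 597) and lowest in Pcdhb8 (4.59 CPM against 6.28 to 7.29). BAC-CAG library 2 was highest in genes of pericytes and smooth muscle (287 CPM summed against 238 to 254), interferon response genes (181 CPM summed against 155 to 162), C1qa (34.5 CPM against 30.4 to 31.5) and mt-Nd2 (7240 CPM against 6430 to 6720). BAC-CAG library 3 was highest in Fancd2 (3.42 CPM against 1.68 to 2.27), and BAC-CAG library 6 was lowest in Pcdhb8 (6.11 CPM against 7.73 to 8.66).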

How the results depend on the processing

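Msantd1 was called under every setting run, with log2 changes between 1.98 and 2.24 when single libraries were left out. The count of called genes was 24 with DESeq2, 3 without a low-count filter (Msantd1, Igfbp4 and Slc1a2), 33 with animal tags 33 and 34 only, and 1 to 2 when single libraries were left out (2 without WT library 4); it was 1 in the other settings, among them 2 chosen after seeing the data that left out WT libraries 5 and 6, or 2, 5 and 6. The cause of these differences was not tested. The choroid plexus median was -0.27 without WT libraries 2, 5 and 6 and between -1.06 and -0.29 when single libraries were left out. The thalamic median was 0.076 with limma-voom, 0.079 with tags 33 and 34, 0.059 without WT libraries 5 and 6, and between -0.012 and 0.056 when single libraries were left out. With tags 33 and 34 the medians were -0.031 for cortical excitatory neurons, 0.020 for glutamate receptors, 0.014 for interferon genes and 0.078 for mitochondrial synthetases, and the sign also turned for pericytes and smooth muscle (0.011), immediate early genes (-0.066), chaperones (-0.033), GABA receptors (0.018), DNA repair genes (0.032) and neurotrophins (-0.011). Leaving out single libraries gave medians on both sides of 0 for striatal projection neurons (-0.097 to 0.029), cortical excitatory neurons (-0.020 to 0.011), immediate early genes (-0.028 to 0.17), acetylcholine receptors (-0.0088 to 0.050), neurotrophins (-0.039 to 0.026), cholesterol synthesis (-0.048 to 0.011), chaperones (-0.00084 to 0.063), DNA repair (-0.019 to 0.0074) and ribosomal proteins (-0.021 to 0.013). No direction is read from these lists. Of one sign but moved by over 1.5 times were the medians of GABA receptors (-0.043 to -0.0099), interferon genes (-0.10 to -0.0079), mitochondrial synthetases (0.0067 to 0.036) and nuclear RNAs (0.00098 to 0.069). The interferon median was 0.018 without WT libraries 2, 5 and 6. The hippocampal median lay between -1.5e-07 and 0.15 when single libraries were left out. With DESeq2, Megf11 in cortex at 12 months had -0.0059 and Mal in BACHD cortex had 0.0011, each of opposite sign to edgeR and near 0. The cortex against striatum test called 1 gene with DESeq2. In edgeR it called 0 genes both without and with the animal as a replicate block; a DESeq2 fit with the block was not run. Low counts limit genes such as Folr1.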
